A study of Mus musculus with 12 samples.

Results

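The mRNA levels of 6 genes around bone morphogenetic protein (BMP) signalling, out of the 34245 genes in the deposited table, were followed in cultured mouse blastocysts. They were Id1, Id2 and Id3, the ligand gene Bmp4, and the inhibitory SMAD genes Smad6 and Smad7. These genes were selected on the p38-MAPKi and control (DMSO) values of these same libraries, so their levels across conditions and times are given as a description, with no test.

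The embryos came from hybrid mothers (F1, C57Bl6 x CBA/W), were isolated at the 2-cell stage (E1.5) and were cultured in KSOM with amino acids. From E3.5, blastocysts were exposed either to the solvent DMSO (control) or to the p38-MAPK inhibitor SB220025 at 20 µM (p38-MAPKi). They were collected after 4, 7 or 10 h, and times are given as hours from E3.5. Each of the 12 libraries held poly(A)-selected RNA of 30 whole blastocysts pooled together, and each of the 6 groups had 2 libraries. These were described as biological duplicates, and nothing further was stated on what they share, so p-values can measure only the spread between these pools. For p38-MAPKi against control at 4 h, p-values and SEs rest on a variance shared by genes of like level, not on each gene's own spread. The same holds for the control at 7 h against 4 h.

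Between 11242313 and 24457311 reads were assigned to genes in each library. The first p38-MAPKi replicate at 7 h was the shallowest, with a read in 14026 genes, against 16368 to 17670 genes in the other libraries. Levels are in RPKM, the reads of a gene divided by its transcript length in kilobases and by the library's assigned reads on a fixed scale, and intervals are 95% Poisson intervals of the read count, which cover counting error only. A pool holds trophectoderm, epiblast and primitive endoderm together, so fewer cells of a type and less RNA per cell cannot be told apart, and no spike-in RNA was used.

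BMP ligands bind paired type I and type II receptor kinases, which phosphorylate the receptor-regulated SMADs; with SMAD4 these enter the nucleus and bind DNA. Id genes are among the best known direct targets of this signal, and the ID proteins bind basic helix-loop-helix (bHLH) factors and keep them from DNA. SMAD6 and SMAD7 are themselves induced by the pathway and inhibit it, which makes them parts of a negative feedback loop. In the mouse blastocyst, Id2 is known as a gene of the trophectoderm, and Bmp4 as a gene of the inner cell mass.

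Upstream sequences were looked up in a RefSeq promoter table (build GRCm38.p6), in which 4 of the 6 members had an entry: Id2, Id3, Bmp4 and Smad6. They are shown for Id2, the member with the highest level, and Bmp4, the ligand, whose p38-MAPKi and control libraries were apart in opposite directions at 4 h. Capitals mark GGCGCC, a GC-rich element of the kind SMADs bind, the single match to any motif in the sequence shown. The stretch of Id2 (chr12:25096254-25096342, minus strand) ends 162 bases before its RefSeq start, because the 161 bases nearer to the start lie in an exon of a longer GENCODE transcript; the stretch shown is intronic in that transcript. The stretch of Bmp4 (chr14:46390670-46390919, minus strand) is the 250 bases that precede its start.
Id2: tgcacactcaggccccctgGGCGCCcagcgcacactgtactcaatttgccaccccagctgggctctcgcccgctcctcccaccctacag
Bmp4: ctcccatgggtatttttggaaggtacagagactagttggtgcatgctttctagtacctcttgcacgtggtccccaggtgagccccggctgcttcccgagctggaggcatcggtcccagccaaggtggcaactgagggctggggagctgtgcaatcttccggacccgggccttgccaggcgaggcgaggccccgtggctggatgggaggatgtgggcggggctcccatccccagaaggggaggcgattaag

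The GC-rich element GGCGCC, the SMAD box CAGAC, the cAMP response element TGACGTCA and the TATA box TATAAA were searched on both strands in the 250 bases upstream of each start. Id2 held GGCGCC once, 231 bases before its start, and none of the other motifs. The window of Id3, which lies wholly in exons of GENCODE transcripts, held CAGAC at 2 places and no other motif, while those of Bmp4 and Smad6 held none. Of 32851 promoters in the table, 9.59% held the GC-rich element, 42.2% the SMAD box, 1.55% the cAMP response element and 12.4% the TATA box over the same length. A match is a stretch of letters and not a site shown to be bound.

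Id2 was by far the most abundant of the ID family, and its level was lower with p38-MAPKi than in the control at each time point. At 4 h, Id2 stood at 72.0 and 72.4 RPKM in the control libraries and at 39.2 and 40.7 RPKM in the p38-MAPKi libraries. At 7 h, Id2 stood at 93.3 and 49.8 RPKM in the control and at 31.6 and 33.6 RPKM with p38-MAPKi. At 10 h, Id2 stood at 76.5 and 90.8 RPKM in the control and at 50.4 and 60.1 RPKM with p38-MAPKi. Every p38-MAPKi library was thus below both control libraries of its own time point, although the second control at 7 h, the lowest control, was also below both p38-MAPKi libraries of 10 h.

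The depth behind these levels was ample. The lowest library, the first p38-MAPKi replicate at 7 h, held 866 Id2 reads (31.6 RPKM, interval 29.5 to 33.8), and the lowest control held 2833 reads (49.8 RPKM, interval 47.9 to 51.6). Counting error was therefore small beside the gap between the control libraries at 7 h.

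Ordered by group mean, Id2 was highest in the control at 10 h (83.6 ± 10.1 RPKM, SD, n = 2), followed by the control at 4 h (72.2 ± 0.295) and at 7 h (71.5 ± 30.8). The p38-MAPKi groups followed with 55.3 ± 6.86 RPKM at 10 h, 39.9 ± 1.07 at 4 h and 32.6 ± 1.43 at 7 h. Neighbours whose libraries overlapped were the controls at 4 h and 7 h, and the control at 7 h with p38-MAPKi at 10 h. Over the 6 control libraries Id2 had a mean of 75.8 RPKM, above 93.9% of the 10708 genes with a control mean of at least 1 RPKM.

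As differences on the log2 scale, Id2 with p38-MAPKi was -0.86 ± 0.20 (SE) against the control at 4 h, -1.06 ± 0.27 at 7 h and -0.60 ± 0.11 at 10 h. These correspond to 55.2%, 47.8% and 66.1% of the control level. The value at 7 h depended on the controls, at -0.61 without the first control replicate and -1.52 without the second. All genes tested there had a median of -0.14, and with each library centred on its median Id2 was at -0.87. Both p38-MAPKi libraries were below both controls in 13.7% of genes tested at 4 h, 38.7% at 7 h and 29.6% at 10 h, and at all 3 time points in 449 of 10466 genes (4.29%). Whether the Id2 difference itself varied between time points was not tested.

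**Figure D1:**
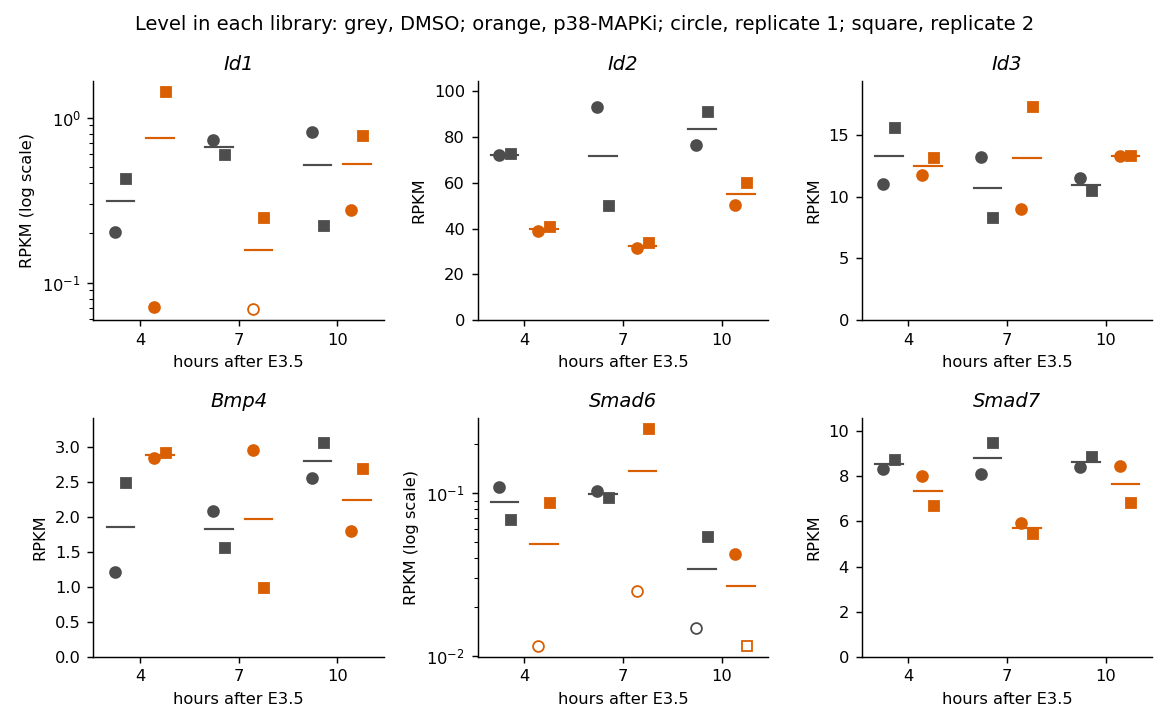
Level of each member in each of the 12 libraries (vertical axis, RPKM, log scale for Id1 and Smad6) by hours after E3.5, with control (DMSO) in grey, p38-MAPKi in orange, circles and squares for replicates 1 and 2, bars for group means, and open symbols for libraries without a read, drawn at the deposited value of 0.9 reads. Id2 with p38-MAPKi lies between 31.6 and 60.1 RPKM and below both controls of its time point, whereas Id3 overlaps at 4 and 7 h.

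Id3, a closely related family member, did not show the same order of conditions. Id3 at 4 h was at 11.0 and 15.5 RPKM in the control and at 11.8 and 13.1 RPKM with p38-MAPKi. Id3 at 7 h was at 13.2 and 8.25 RPKM in the control and at 8.99 and 17.3 RPKM with p38-MAPKi. The groups overlapped at both of these time points, and the replicates of one group were up to 8.99 against 17.3 RPKM apart. At 10 h Id3 was at 11.5 and 10.4 RPKM in the control and at 13.3 in both p38-MAPKi libraries, which were both above the controls, as in 22.6% of genes tested.

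On the log2 scale Id3 with p38-MAPKi was -0.07 ± 0.22 (SE) against the control at 4 h, 0.26 ± 0.33 at 7 h and 0.28 ± 0.09 at 10 h. Leaving out single libraries turned the sign at 4 h (from -0.32 to 0.18) and at 7 h (from -0.21 to 0.73). By group mean Id3 lay between 10.7 ± 3.5 RPKM (SD, n = 2; control, 7 h) and 13.3 ± 0.0142 RPKM (p38-MAPKi, 10 h), a narrower range than for Id2. In that order, the p38-MAPKi group at 7 h overlapped with every other group.

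Id1 and Id4, the other family members, were close to the limit of detection. Id1 had from 0 to 36 reads in a library and at most 1.44 RPKM, and 1 library reached 1 RPKM. Id1 at 4 h had 4 and 9 reads in the control and 2 and 36 reads with p38-MAPKi. Id1 at 7 h had 18 and 16 reads in the control and 0 and 5 reads with p38-MAPKi, and at 10 h 18 and 6 reads in the control and 7 and 22 with p38-MAPKi. The groups overlapped at 4 h and 10 h, and p38-MAPKi was below the control at 7 h at counts so low that no fold change is given. In the library without an Id1 read, 3 reads would have been 0.23 RPKM, and the upper limit of the interval was 0.283 RPKM. Id4, named for comparison, had 0 to 21 reads.

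Within the ID family Id2 therefore made up most of the mRNA in every library. The share of Id2 in the summed RPKM of Id1, Id2, Id3 and Id4 lay between 81.9% and 89.4% in the control libraries (median 86.2%) and between 65.6% and 80.8% in the p38-MAPKi libraries (median 77.2%). The ratio of Id2 to Id3 RPKM was 4.66 to 8.71 in the control and 1.94 to 4.51 with p38-MAPKi. All 6 control libraries were above all 6 p38-MAPKi libraries in both measures, which are derived from the levels that chose the members.

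**Figure D2:**
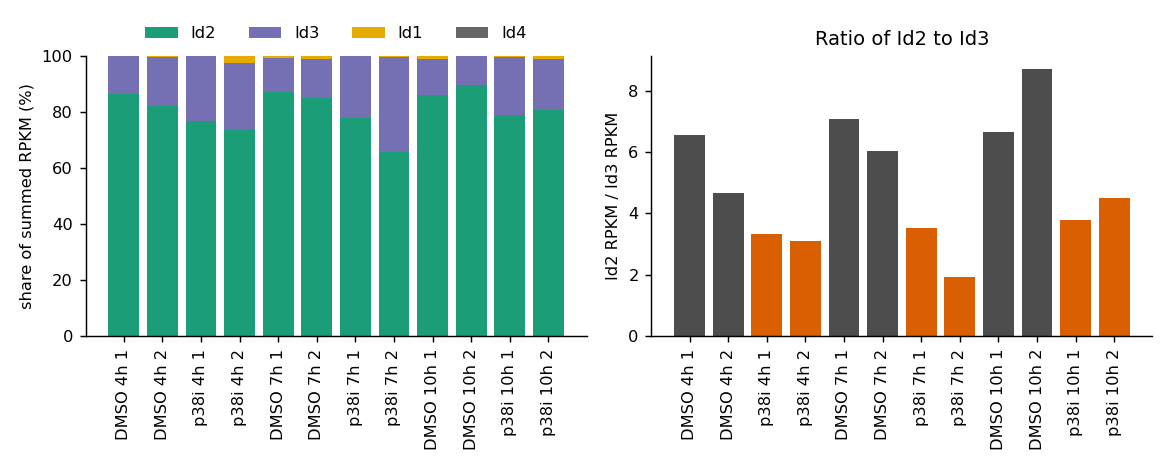
Share of each ID gene in their summed RPKM (left, %) and ratio of Id2 to Id3 RPKM (right; control in grey, p38-MAPKi in orange) in each library. The ratio is at least 4.66 in the control libraries and at most 4.51 with p38-MAPKi.

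Bmp4, which encodes the ligand among the members, was detected at a low level, with 38 to 158 reads in a library. Bmp4 at 4 h was at 1.21 and 2.49 RPKM in the control and at 2.85 and 2.91 RPKM with p38-MAPKi. Bmp4 at 7 h was at 2.09 and 1.56 RPKM in the control and at 2.96 and 0.98 RPKM with p38-MAPKi. At 10 h Bmp4 was at 2.55 and 3.05 RPKM in the control and at 1.80 and 2.68 RPKM with p38-MAPKi. The p38-MAPKi libraries were above both controls at 4 h only, as in 26.8% of genes tested, and the groups overlapped at the later times.

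The counting intervals of Bmp4 were wide. The first control at 4 h held 46 reads (1.21 RPKM, interval 0.886 to 1.61) and the second held 101 (2.49 RPKM, interval 2.03 to 3.02), so that the interval of the second reached above the level of the first p38-MAPKi library. On the log2 scale Bmp4 with p38-MAPKi was 0.73 ± 0.34 (SE) against the control at 4 h, -0.08 ± 0.54 at 7 h and -0.34 ± 0.23 at 10 h. The first of these was 0.21 without the first control replicate and 1.25 without the second, and the value at 7 h turned to 0.11 after median centring. Leaving out single libraries moved Bmp4 from -0.88 to 0.71 at 7 h and from -0.63 to -0.06 at 10 h. Group means ranged from 1.82 ± 0.373 RPKM (SD, n = 2; control, 7 h) to 2.88 ± 0.0472 (p38-MAPKi, 4 h), and p38-MAPKi at 7 h, at 1.97 ± 1.40, spanned nearly all of them. The annotated genes Gm15217 and Gm15222 overlap Bmp4 on the opposite strand; the strand setting of the counting was not given in the sources used here, and the former had no read and the latter at most 8 in any library.

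Smad7, an inhibitory SMAD that acts on activated type I receptors, was the second feedback member and was well detected, with 301 to 999 reads. At 4 h Smad7 was at 8.33 and 8.73 RPKM in the control and at 8.03 and 6.70 RPKM with p38-MAPKi. At 7 h Smad7 was at 8.12 and 9.46 RPKM in the control and at 5.92 and 5.46 RPKM with p38-MAPKi, and at 10 h at 8.41 and 8.84 RPKM in the control and at 8.47 and 6.82 RPKM with p38-MAPKi. The p38-MAPKi libraries were below both controls at 4 h and 7 h, as in 13.7% and 38.7% of genes tested, and overlapped with them at 10 h. The lowest levels of the series were those of p38-MAPKi at 7 h.

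On the log2 scale Smad7 with p38-MAPKi was -0.22 ± 0.23 (SE) against the control at 4 h, -0.62 ± 0.21 at 7 h and -0.18 ± 0.12 at 10 h. With median centring the value at 7 h was -0.43. Leaving out single libraries moved Smad7 from -0.35 to -0.09 at 4 h, from -0.74 to -0.51 at 7 h and from -0.34 to -0.03 at 10 h. The control means were close together, at 8.53 ± 0.284, 8.79 ± 0.950 and 8.63 ± 0.305 RPKM (SD, n = 2) at 4 h, 7 h and 10 h. With p38-MAPKi they were 7.37 ± 0.942, 5.69 ± 0.330 and 7.64 ± 1.17 RPKM.

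Smad6, the other inhibitory SMAD, was at the limit of detection. No library held more than 14 Smad6 reads or 0.251 RPKM, and 1 control and 3 p38-MAPKi libraries held none. At 4 h Smad6 had 6 and 4 reads in the control and 0 and 6 with p38-MAPKi, at 7 h 7 and 7 against 0 and 14, and at 10 h 0 and 4 against 3 and 0. The groups overlapped at each time, a difference was not detectable at this depth, and no fold change is given. In the shallowest library 3 reads would have been 0.0833 RPKM. Smad6 and Id1 were the 2 members that did not pass the filter of the tests (1 RPKM or more in no fewer than 2 of the 4 libraries compared), and the other 4 members passed it in each comparison.

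**Figure D3:**
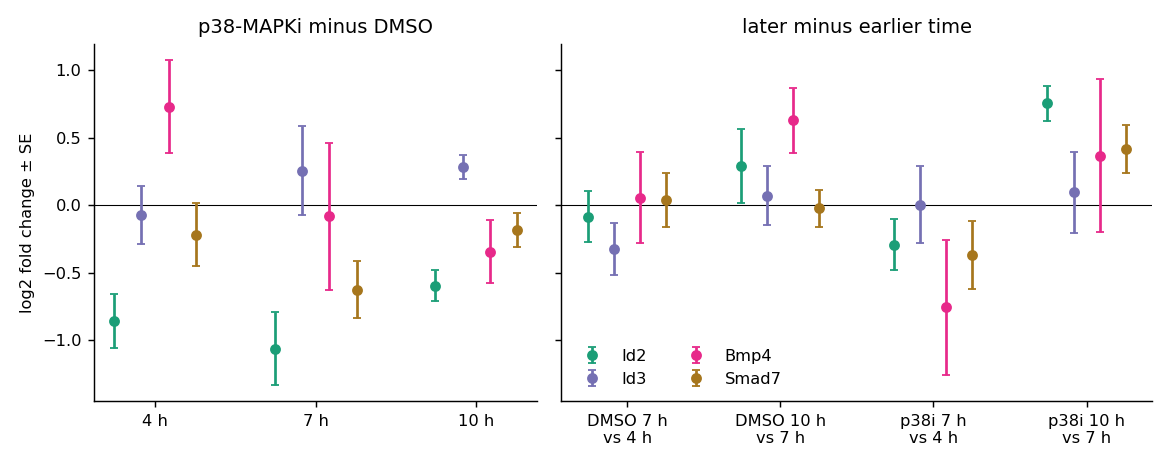
Differences of the 4 members that passed the filter on the log2 scale (points, with SE as bars), p38-MAPKi minus control at each time point (left) and later minus earlier time within one condition (right). On the left Id2 (from -1.06 to -0.60) and Smad7 (from -0.62 to -0.18) are below 0 at each time point. On the right Id2 is at 0.76 for p38-MAPKi at 10 h against 7 h.

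The levels in all 12 libraries were in view when the members were selected, so their course over time within a condition is likewise given as a description, with no test. In the p38-MAPKi libraries Id2 was higher at 10 h (55.3 ± 6.86 RPKM, SD, n = 2) than at 7 h (32.6 ± 1.43), with both later libraries above both earlier ones, a log2 difference of 0.76 ± 0.13 (SE). Smad7 had the same order, at 0.42 ± 0.18. That order was common in this comparison, found in 44.1% of the 11024 genes tested, and the median of all genes was 0.16. With each library centred on its median Id2 was at 0.53 and Smad7 at 0.19. Smad7 was at 0.20 with the length trend removed and at 0.26 without the first p38-MAPKi replicate at 10 h. From 4 h to 7 h the p38-MAPKi libraries of Id2 and Smad7 had the opposite order, at -0.29 ± 0.19 and -0.37 ± 0.25, as in 24.2% of genes tested. Median centring moved Id2 there to -0.18 and Smad7 to -0.25, and Smad7 was at -0.24 without the first p38-MAPKi replicate at 4 h.

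In the control, Id2 was at -0.08 ± 0.19 (log2, SE) at 7 h against 4 h and at 0.29 ± 0.27 at 10 h against 7 h, and its libraries overlapped at both steps. Bmp4 in the control at 10 h against 7 h was at 0.63 ± 0.24, with both later libraries above both earlier ones, as in 18.3% of genes tested. Id3 overlapped at each step under both conditions.

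Single libraries set several of these differences. Without the first control replicate at 7 h, Id2 in the control at 10 h against 7 h was at 0.74, and without the second at -0.16. In p38-MAPKi at 10 h against 7 h, Id3 was at -0.38 without the first p38-MAPKi replicate at 7 h and at 0.57 without the second, and Bmp4 was at 1.16 without the first of these libraries and at -0.43 without the second. Across all genes, limma called 53 of 10776 (0.492%) in the control at 7 h against 4 h, 6 of 10873 (0.0552%) in the control at 10 h against 7 h, 1 of 10866 (0.0092%) with p38-MAPKi at 7 h against 4 h and 2424 of 11024 (22%) with p38-MAPKi at 10 h against 7 h.

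The rest of the pathway was followed in 7 lists with 110 genes, of which 51 stayed under 1 RPKM in every library. Tested with limma, 2 of 53 list genes were higher with p38-MAPKi at 4 h and none lower; 0 of 52 passed at 7 h and 0 of 54 at 10 h. In these comparisons 98 of 10781 (0.909%), 233 of 10940 (2.13%) and 88 of 10959 (0.803%) of all genes were called. At an unadjusted p under 0.05 there were 6, 11 and 9 list genes, beside 1016, 3102 and 2172 of all genes. Voom on the recovered reads called 0, 5 and 1 list genes, beside 37, 1681 and 487 of all genes. The median log2 difference over the list genes was 0.01, -0.23 and -0.04 at 4 h, 7 h and 10 h, beside 0.07, -0.14 and -0.02 over all genes tested.

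Among ligands, 23 genes were in the table and 1 was tested, Gdf3, a ligand of the epiblast lineage. Gdf3 had a mean of 10.7 RPKM over the 12 libraries, and its p38-MAPKi libraries were above both controls at each time, with log2 differences of 0.31, 0.39 and 0.20 (limma, adjusted p = 0.706, 0.223 and 0.351). The next ligands by mean level were Gdf9 at 0.858 and Bmp8b at 0.566 RPKM, so that Bmp4 and Gdf3 were the ligand genes of these lists and members with means above 1 RPKM.

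Of 16 receptor and coreceptor genes, 10, 9 and 11 were tested at 4 h, 7 h and 10 h, and none passed. The most abundant were Tdgf1, an epiblast coreceptor, at 16.5 RPKM, the BMP type I receptor gene Bmpr1a at 15.9, and the activin type I receptor gene Acvr1b at 8.49. Bmpr1a was at -0.17, -0.51 and 0.11 on the log2 scale with p38-MAPKi (limma, adjusted p = 0.842, 0.128 and 0.476). Eng, the gene of the coreceptor endoglin, was named after its values were seen: its p38-MAPKi libraries were above both controls at each time, at 4.78 and 3.23 against 2.50 and 2.22 RPKM, 6.94 and 4.46 against 3.32 and 2.56 RPKM, and 6.61 and 3.71 against 2.40 and 2.20 RPKM. The log2 differences of Eng were 0.74, 0.93 and 1.11 (limma, adjusted p = 0.326, 0.0903 and 0.1), none past the threshold.

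Of the 6 receptor-regulated and common SMAD genes, 5 were tested at each time point, and none passed. The common mediator Smad4 (18.4 RPKM) and the activin-type Smad2 (15.2) and Smad3 (5.93) were the most abundant, while the BMP-type Smad5 and Smad1, named for their role, had means of 2.06 and 1.02 RPKM. The median log2 difference of this list was -0.02, -0.25 and -0.01, close to the medians of all genes.

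Of 16 genes of extracellular antagonists, 4 were tested, and Nbl1, which encodes a secreted BMP antagonist, was higher with p38-MAPKi at 4 h. Nbl1 was at 3.6 and 3.77 RPKM in the control and at 6.14 and 8.90 RPKM with p38-MAPKi, a log2 fold change of 1.01 ± 0.25 (SE; limma, adjusted p = 0.0143), higher in both libraries. At the later time points its groups overlapped, with log2 differences of 0.43 and -0.23. The other abundant antagonists were Fstl3 (10.8 RPKM), at 0.52, -0.11 and 0.01, and Twsg1 (2.86 RPKM), at 0.22, 0.58 and 0.19, without passing.

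Of 12 genes of bHLH partners and targets of ID proteins, 6 were tested, and Hand1, a bHLH factor of trophoblast giant cells, was higher with p38-MAPKi at 4 h. Hand1 was at 1.26 and 1.67 RPKM in the control and at 3.33 and 4.77 RPKM with p38-MAPKi, a log2 fold change of 1.46 ± 0.33 (SE; limma, adjusted p = 0.0036), higher in both libraries. Tcf3, which encodes an E protein that ID proteins bind, was the most abundant of this list at 16.3 RPKM, at 0.06, -0.13 and -0.16 on the log2 scale, and Hes6 followed at 3.82 RPKM.

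The calls of Nbl1 and Hand1 came from the fit at 4 h, in which a gene's own spread was not used, and depended on the libraries. Of the pair, 0 were called without the first control replicate at 4 h and without the second p38-MAPKi replicate, and 1 without the second control replicate. The limma fits called 0 after median centring, after removal of the length trend, without the filter, without the trend and in one fit over the 12 libraries, with 6 to 10 list genes at an unadjusted p under 0.05; voom called 0 as well, and the fit with the replicate block called 1. Over the 12 alternatives the log2 fold change stayed positive, from 0.74 to 1.27 for Nbl1 and from 1.03 to 1.72 for Hand1, with limma adjusted p from 0.000767 to 0.701 and from 0.000723 to 0.701.

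Of 23 intracellular regulators 21 were tested at each time point, and none passed. They were led by the ubiquitin ligase gene Stub1 (86.2 RPKM), the receptor-binding immunophilin gene Fkbp1a (40.4) and the SMAD corepressor gene Ski (25.8). Ski was at 28.3 and 31.4 RPKM in the control and at 14.4 and 20.6 RPKM with p38-MAPKi at 7 h, a log2 difference of -0.79 ± 0.21 (SE; limma, adjusted p = 0.065), and at -0.18 and 0.08 at 4 h and 10 h.

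Of 14 other BMP-responsive transcription factor genes, 6 were tested, and none passed. Gata3, a trophectoderm factor, was the most abundant at 88.4 RPKM, followed by Tbx3 (38.4) and Tfap2a (22.6). Gata3 was the list gene below both controls at each time point, 1 of the 52 list genes tested at all 3, with log2 differences of -0.54 ± 0.20, -0.68 ± 0.18 and -0.30 ± 0.06 (SE; limma, adjusted p = 0.227, 0.0652 and 0.0871). Gdf3 and Eng, 2 of the 52, were above both controls at each time point. Over all genes tested at the 3 time points, 4.29% were below both controls throughout and 3.61% above, and at 7 h alone 23% were above.

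**Figure D4:**
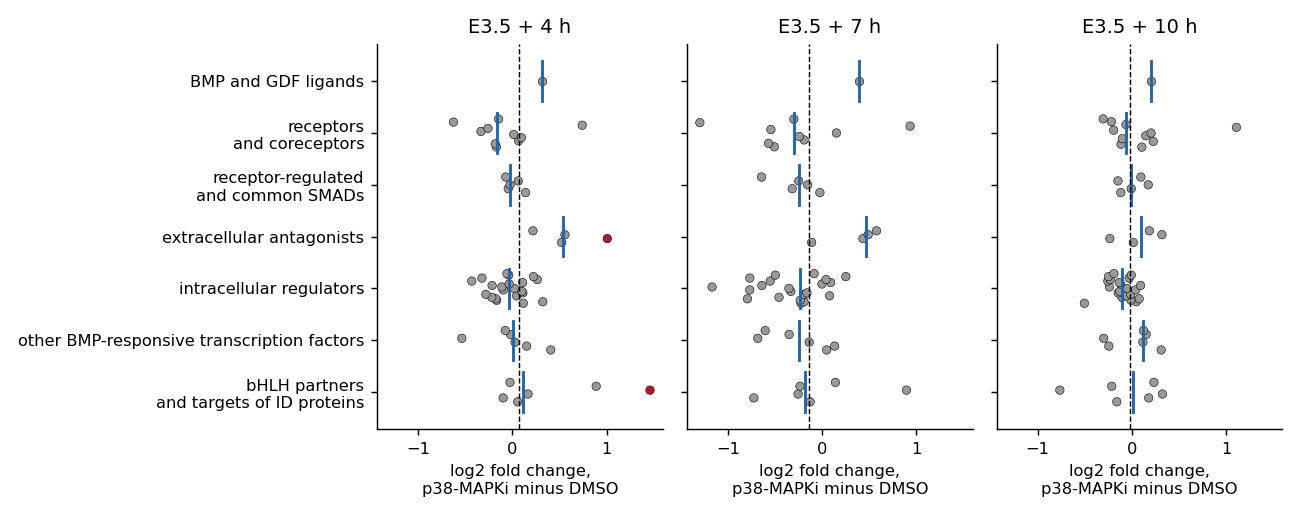
Difference on the log2 scale, p38-MAPKi minus control, of each tested gene (points) of the 7 pathway lists at each time point, with list medians as blue bars, the median of all genes tested as a dashed line, and genes with a limma adjusted p under 0.05 in red. The red points are Nbl1 at 1.01 and Hand1 at 1.46 at 4 h.

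For the 3 members with at least 1 RPKM in all 12 libraries, the most similar genes were sought among the 9388 genes with that level, by Pearson correlation of log2 values over the 12 libraries. The libraries fall into groups of treatment and time, so r describes these groups as well as single pools. Id2 was most like Gata3 (r = 0.93), Cdx2 (r = 0.929) and Csrnp1 (r = 0.928). Id3 was most like Tsg101 (r = 0.83), Wtip (r = 0.817) and Orc6 (r = 0.816). Smad7 was most like Mysm1 (r = 0.97), Lmtk2 (r = 0.967) and Mtf1 (r = 0.962). Of the genes nearest to Id2, the transcription factors Gata3 and Cdx2 mark the trophectoderm, and Csrnp1 had nearly the same r. These correlations use the levels that chose the members and are a description.

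The markers of the trophectoderm, the outer epithelium of the blastocyst, were taken as a whole list. Of 8 markers, Cdx2 and Gata3 were below both controls at each time point, as Id2 was, and none was above both throughout. Over all genes tested at the 3 time points, 4.29% were below both controls throughout. The order was not limited to this lineage, as 1 of 8 epiblast markers and 2 of 8 primitive endoderm markers had it too. At single time points 2, 4 and 2 of the 8 were below both controls and 3, 0 and 1 above. Over all genes tested, 13.7%, 38.7% and 29.6% were below at these times and 26.8%, 23% and 22.6% above. The 8 include Elf5, which did not pass the filter of the tests. Cdx2 stood at 195 and 219 RPKM in the control and at 151 and 158 RPKM with p38-MAPKi at 4 h, at 237 and 190 against 158 and 144 RPKM at 7 h, and at 204 and 208 against 177 and 176 RPKM at 10 h. Gata3 stood at 92.1 and 101 against 62.5 and 70.7 RPKM, at 110 and 90.1 against 67.2 and 57.2 RPKM, and at 111 and 115 against 94.7 and 89.4 RPKM at these times. For Cdx2 the log2 differences were -0.42, -0.49 and -0.22 (limma, adjusted p = 0.49, 0.127 and 0.11), so that neither marker passed the test at any time.

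The keratin markers of the same epithelium had another order. Krt18, the most abundant of the list, was at 909 and 989 RPKM in the control and at 1048 and 1079 RPKM with p38-MAPKi at 4 h, and overlapped between the conditions later. Krt8 was at 477 and 509 against 571 and 572 RPKM at 4 h and likewise overlapped later. Elf5, a marker of later trophoblast, stayed under 1 RPKM in every library. Summed over the 8 markers, the control and p38-MAPKi libraries were at 1770, 1927, 1955 and 1986 RPKM at 4 h, at 2434, 1851, 2229 and 2095 RPKM at 7 h, and at 2360, 2596, 2215 and 2502 RPKM at 10 h, in the order of the 2 controls and the 2 p38-MAPKi libraries. The sums, set mostly by the keratins, overlapped at 7 h and 10 h and were higher with p38-MAPKi at 4 h. The part of these markers in the Id2 levels was not tested.

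**Figure D5:**
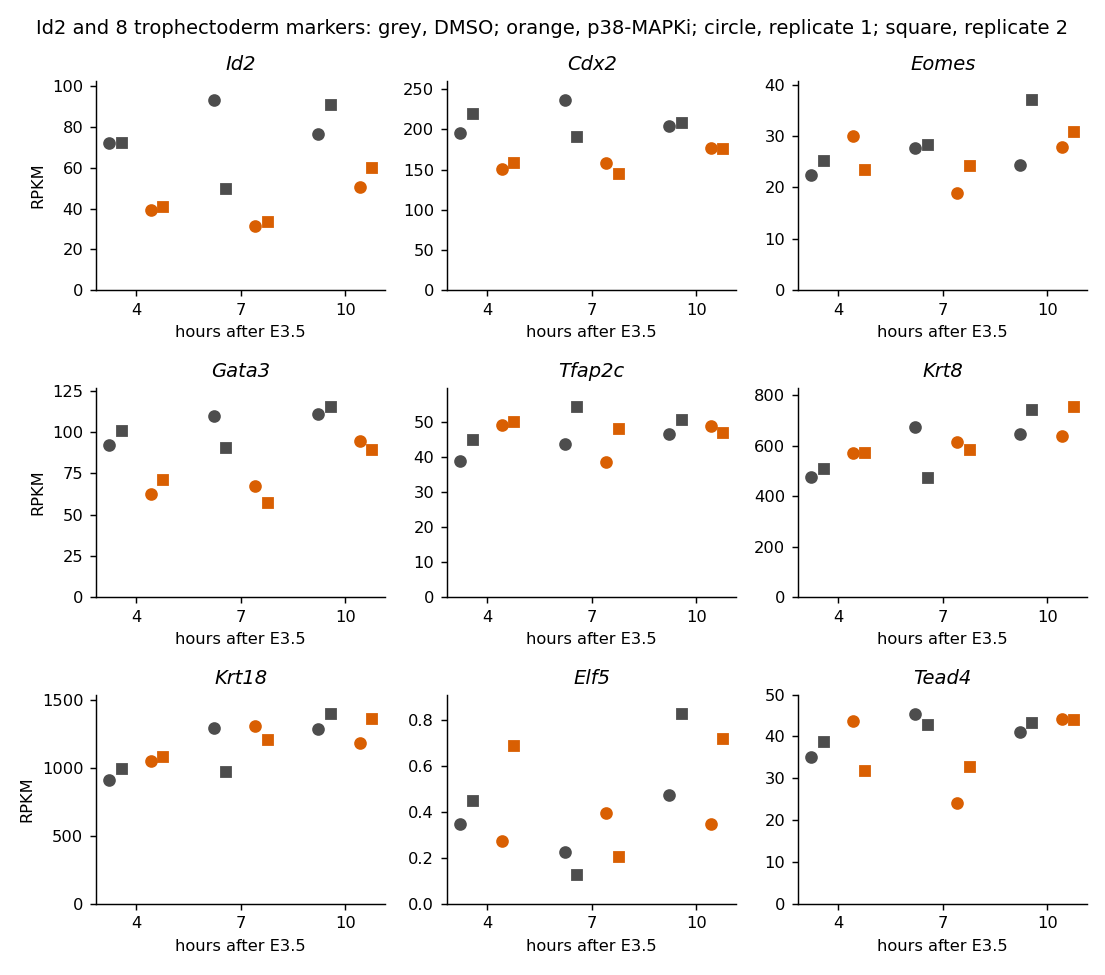
Level (RPKM) of Id2 and of the 8 trophectoderm markers in each library by hours after E3.5, with control (DMSO) in grey, p38-MAPKi in orange, and circles and squares for replicates 1 and 2. Id2, Cdx2 and Gata3 with p38-MAPKi are below both controls at each time, and the other markers are not.

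Markers of the other lineages of the blastocyst were present in the pools as well. The 8 epiblast markers, led by Pou5f1, summed to 569 and 690 RPKM in the control and 648 and 701 RPKM with p38-MAPKi at 4 h, to 627 and 676 against 692 and 658 RPKM at 7 h, and to 611 and 610 against 550 and 575 RPKM at 10 h. Their sums were thus lower with p38-MAPKi at 10 h and overlapped earlier. They were set mostly by Pou5f1, which was above both controls at 4 h and 7 h and below both at 10 h. Sox2, named after its values were seen, was the epiblast marker below both controls at each time point. Counting markers, 2, 4 and 6 of 8 were below both controls at 4 h, 7 h and 10 h and 1, 1 and 0 above, beside 13.7%, 38.7% and 29.6% of all genes tested below and 26.8%, 23% and 22.6% above.

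The 8 primitive endoderm markers, led by Gata6, summed to 144 and 172 RPKM in the control and 175 and 131 RPKM with p38-MAPKi at 4 h, to 176 and 190 against 118 and 124 RPKM at 7 h, and to 185 and 182 against 187 and 182 RPKM at 10 h. At 7 h these sums were lower with p38-MAPKi in both libraries. They were set mostly by Gata6 and Dab2, and 3 of the 8 markers overlapped between the conditions at that time. Of the 8, 4, 5 and 4 were below both controls at 4 h, 7 h and 10 h and 0, 0 and 2 above. Over all genes tested, 13.7%, 38.7% and 29.6% were below and 26.8%, 23% and 22.6% above. Gata6 itself was below both at 7 h and above both at 10 h. Dab2 and Foxq1, named after their values were seen, were below both controls at each time point. Sox7, above both at 10 h, and Foxq1 were under 1 RPKM in every library and were not among the genes tested. The part of these lineages in the members' levels was not tested.

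Dab2, named after its values were seen, was the lineage marker that passed a limma test between the conditions. At 7 h Dab2 was lower with p38-MAPKi, at 24 and 28.3 against 57.5 and 47.3 RPKM, a log2 fold change of -1.0 (limma, with an adjusted p of 0.0461 and a range of 0.00182 to 0.237 over the alternatives), lower in both libraries. Over the alternatives the log2 fold change of Dab2 ranged from -1.14 to -0.64, the latter with the length trend removed (limma, adjusted p = 0.12). The limma adjusted p was 0.0819 without the first control replicate and 0.237 without the second, and 0.0694 after median centring.

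Of cells that may cling to embryos or be collected with them, 6 cumulus or granulosa markers summed to at most 0.948 RPKM, 3 oviduct markers to at most 1.29, 5 blood markers to at most 1.17 and 4 fibroblast markers to at most 0.245 RPKM in any library. These sums include the deposited value of genes without a read. Over genes with a read alone, the cumulus or granulosa sums and the oviduct sums were above both controls with p38-MAPKi at 4 h and 10 h and overlapped at 7 h. Of 6 cumulus or granulosa markers, Amh was above both controls at 4 h and Foxl2 at 10 h, with 3 and 1 below. Of 3 oviduct markers, Ovgp1 was above both at these times, with 1 and 0 below. The markers below include genes without a read. Over all genes tested, 26.8% and 22.6% were above and 13.7% and 29.6% below. These markers were named after their values were seen.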

How the data were processed

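RNA of 12 pools of 30 blastocysts was sequenced after poly(A) selection. According to the submitters' processing notes and the study's methods, the authors trimmed the reads with Trim Galore 0.4.1, mapped them to GRCm38 with HISAT2 2.0.5, counted them over genes in SeqMonk and deposited log2 RPKM values; their own test ran on read counts within SeqMonk. The strand setting and the treatment of reads with several places were not given in the sources used here. Genes with no read were given the value of 0.9 reads, which gave each library's total; with transcript lengths (GENCODE M21, or a search), whole reads (within 0.02) were recovered for 34223 of 34245 genes (99.94%) and used for depth and intervals; 12527 genes had no read in any library. Every value column was used.

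Comparisons used limma 3.58.1 (lmFit, eBayes with trend) in R 4.3.3 on the deposited log2 values of the 4 libraries compared, keeping genes that reached 1 RPKM in 2 or more of them, with Benjamini-Hochberg adjustment over all genes and a threshold of 0.05. For p38-MAPKi against control at 4 h and for control at 7 h against 4 h, limma's prior degrees of freedom were infinite, so that each gene took the variance of the trend and its own spread was not used. The fits were tested on simulated data. Tables and figures were made in Python 3.11.15 (matplotlib 3.10.9, scipy 1.17.1, pandas 2.3.3, numpy 2.4.6). The members and lists were chosen with earlier results of these data known. Named genes are the members, list genes called in a p38-MAPKi comparison, and the 3 genes of each list with the highest mean RPKM. The 3 genes most like each member are named too, as is the most abundant marker of each blastocyst lineage. Krt8, Elf5 and Sox7 were named after their values were seen. Others are said to be named after their values were seen, for their role or for comparison. Alternatives were median centring, a pseudocount of 1 RPKM, removal of the trend on transcript length (loess, span 0.5, degree 1), the replicate block, no filter, no trend, one fit over 12 libraries and leaving out each library; chosen after seeing the data were voom on recovered reads, for the members no filter and, between conditions, no trend and one fit, and for the list genes the pseudocount, the block, no filter, no trend and leaving out libraries.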

Additional observations from a re-analysis of the deposited data

Results flagged for a closer look

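For 7 of the named list genes, both p38-MAPKi libraries were on one side of both controls at one time point and on the other side at another; in each case the difference between the time points was not tested. Such opposite orders were common, in 2064 of the 10872 genes tested at 2 or more time points (19%) and in 9 of 53 list genes (17%), beside these 7 of 19 named list genes (36.8%). Hand1 was higher with p38-MAPKi at 4 h and lower at 10 h (0.91 and 0.901 against 1.53 and 1.55 RPKM), and its log2 difference was -2.22 at the later time relative to the earlier. Hes6 went the same way between these times, by -1.10, from 4.32 and 3.91 against 2.23 and 2.21 RPKM to 3.49 and 3.64 against 3.69 and 4.63 RPKM (p38-MAPKi against control). Fkbp1a likewise was above the controls at 4 h and below them at 10 h, a difference of -0.49.

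Between 7 h and 10 h, Ski went from below to above the controls (0.87), as did Bmpr1a (0.61) and Tbx3 (0.50), while Stub1 went from above to below (-0.50). The first p38-MAPKi replicate at 7 h, the library with the fewest reads, enters the values of that time point, and its part in them was not tested.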

How the results depend on the processing

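With the fit as reported, 98, 233 and 88 genes were called for p38-MAPKi against control at 4 h, 7 h and 10 h, 53 and 6 in the control at 7 h against 4 h and 10 h against 7 h, and 1 and 2424 with p38-MAPKi over the same steps. These counts depended strongly on the processing, and the cause was not tested. In that order of comparisons, median centring gave 0 at 4 h and 7 h, 0 and 3 in the control and 0 for p38-MAPKi at 7 h against 4 h. Removal of the length trend gave 0, 0, 0, 3 and 0 in the same comparisons and 1010 in the last. A pseudocount gave 509 at 7 h and 3 in the control at 10 h against 7 h. Without the filter the first 6 comparisons gave 0. Without the trend the 7 gave 11, 0, 9, 5, 14, 0 and 0. One fit over the 12 libraries gave 0, 2512, 0, 0, 0 and 5 in the first 6. Voom, chosen after seeing the data, gave 37, 1681 and 487 for p38-MAPKi against control, 9 in the control at 7 h against 4 h and 0 for p38-MAPKi at that step. Outside of leaving out libraries there were 23 counts of 0 from limma or voom, with 231 to 4143 genes at an unadjusted p under 0.05.

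With replicate number as a block, the counts were 2023 at 7 h, 410 at 10 h, 0 and 28 in the control and 78 for p38-MAPKi at 7 h against 4 h, and the list genes called were 1, 6 and 1. Libraries of the same number had correlations of -0.012 to 0.167 for p38-MAPKi against control, over 2 pairs, which do not establish a pairing.

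Leaving out 1 library at a time, with a lone sample assumed to vary like the other group, gave 6 to 412, 0 to 2996 and 42 to 107 genes for p38-MAPKi against control, 8 to 56 and 12 to 209 in the control, and 0 to 733 and 75 to 6434 with p38-MAPKi. The 0 at 7 h came without the second control replicate and the 2996 without the second p38-MAPKi replicate, and the 75 without the first p38-MAPKi replicate at 10 h.

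Of the list genes, 2, 0 and 0 were called as reported; for them only median centring, the length trend and one fit were planned, and the other settings were chosen after seeing the data. At 4 h the count was 0 with median centring, removal of the length trend, no filter, no trend, voom and one fit. At 7 h it was 5 with voom and 8 in one fit, and at 10 h 1 with voom. Leaving out libraries gave 0 to 2, 0 to 12 (1 without the first and 12 without the second p38-MAPKi replicate) and 0 to 1 (without the second p38-MAPKi replicate).

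Id2 was below the control under all 12 alternatives, at -1.02 to -0.83, -1.52 to -0.61 and -0.72 to -0.47 on the log2 scale at 4 h, 7 h and 10 h. Signs turned in differences over time, and the cause was not tested. With median centring Id3 was at -0.13 (p38-MAPKi, 10 h against 7 h), and in the control at 7 h against 4 h Bmp4 was at -0.0501 and Smad7 at -0.0677. With the length trend removed Id3 was at -0.0654 (p38-MAPKi, 7 h against 4 h), and in the control at that step Bmp4 was at -0.0548 and Smad7 at -0.0878. Leaving out libraries, the values at 7 h against 4 h and at 10 h against 7 h ranged in the control from -0.54 to 0.37 and -0.16 to 0.74 for Id2, -0.66 to 0.0135 and -0.27 to 0.41 for Id3, and -0.0711 to 0.15 and -0.13 to 0.087 for Smad7. For Bmp4 the first ranged from -0.46 to 0.58 in the control. With p38-MAPKi they ranged from -0.47 to 0.48 and -0.38 to 0.57 for Id3, from -1.55 to 0.0402 and -0.43 to 1.16 for Bmp4, from -0.34 to -0.25 and 0.63 to 0.88 for Id2, and from -0.50 to -0.24 and 0.26 to 0.58 for Smad7. Depth limits Id1, Smad6 and Bmp4 most.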

Other observations

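Among the 449 genes whose p38-MAPKi libraries were below both controls at each time point, Id2 ranked 27 from the lowest by the mean of its 3 log2 differences (-0.84), and among the 214 of them with a mean of at least 10 RPKM it ranked 4. This placement uses the values that chose Id2 and is a description.

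The SMAD genes that act for BMP receptors had low levels in these embryos, and those outside the rule for named genes are named after their values were seen. Smad1 ranged from 0.733 to 1.29 RPKM and Smad5 from 1.31 to 2.86 over the 12 libraries, against 14.3 to 20.6 for Smad4. Smad9 had at most 0.326 RPKM. The BMP type II receptor gene Bmpr2 lay between 1.23 and 2.54 RPKM, and Bmpr1a between 10.8 and 20.1.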
